A study of Mus musculus with 3 samples.

Results

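The promoters of 9 genes of the Wnt pathway were followed through 3 lists of H3K4me3 peaks from mouse lung fibroblasts: Lrp5, Lrp6, Apc, Axin1, Gsk3b, Csnk1a1, Ctnnb1, Tcf7l2 and Lzts2. A peak was taken where the deposited annotation gave it to one of these genes with its centre within 2000 bp of the transcription start site (TSS), and separate peaks of 1 gene were kept apart. This gave 20 of the 22802 peaks in the lists: 7 came from Ctrl, 8 from TGFB1 and 5 from TGFB1+miR-9-LOF. Peaks that overlapped between libraries were joined into regions, and the members held 9 of the 8848 promoter regions of the lists, from 8 of the 9 genes. Lzts2 had a pair of regions, and Gsk3b had none by this rule.

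Canonical Wnt signalling turns on the fate of beta-catenin, the product of Ctnnb1. Without a Wnt ligand, a cytoplasmic complex built on the scaffolds Apc and Axin1 lets the kinases encoded by Csnk1a1 and Gsk3b phosphorylate beta-catenin, which is then degraded. When a ligand engages a Frizzled receptor together with Lrp5 or Lrp6, the complex is held at the membrane, and beta-catenin enters the nucleus and binds DNA-bound TCF/LEF factors such as Tcf7l2. Human LZTS2, a leucine zipper protein also called LAPSER1, is known to bind beta-catenin and to lower its level in the nucleus. In lung fibroblasts the pathway is known for its part in activation and matrix production. H3K4me3, trimethylation of lysine 4 of histone H3, marks active promoters, and long H3K4me3 domains are often found at genes that are central to a cell type.

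The cells were MLg (ATCC CCL-206), an established mouse lung fibroblast line, and every library came from chromatin precipitated with the H3K4me3 antibody ab8580. Ctrl is the library whose treatment label reads WT. TGFB1 cells received human recombinant TGFB1, a fibrosis-related growth factor, at 5 ng/ml for the last 4 h before harvest, and TGFB1+miR-9-LOF cells received the same together with an antagomiR, an antisense probe that blocks a microRNA, against miR-9-5p at 60 nM from 24 h before harvest. The study describes the cells as transfected with either a control or the miR-9 probe, while the labels name the miR-9 probe for the third library and no probe for the other ones.

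Each group was 1 library, so no difference below could be set against a replicate spread, no p-value was computed, and every comparison is between libraries. Read depth is not given in the sources used here. Ctrl had 8727 peaks covering 14.96 Mb, TGFB1 had 9116 covering 16.2 Mb and TGFB1+miR-9-LOF had 4959 covering 6.87 Mb. The median peak score was 79, 89 and 46 in this order. The shortest peak was 1000 bp in each list. Of 14 fibroblast marker genes, 9 had a promoter peak in Ctrl, 9 after TGFB1 and 6 under TGFB1+miR-9-LOF. Col1a1, Col1a2, Col5a1, Pdgfrb, Vim and Fn1 had one in all 3. Pdgfra, Twist1 and S100a4 had one in Ctrl and TGFB1 only, and Col3a1, Thy1, Dcn, Lum and Tcf21 had no promoter peak in any library. None of 10 lung epithelial, 6 endothelial or 6 immune markers had one in any library.

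The microRNA blocked in the third library is shown with its seed, bases 2 to 8, in capitals, because every comparison with that library rests on it. RefSeq places identical mature copies on chromosomes 3, 7 and 13.
mmu-miR-9-5p: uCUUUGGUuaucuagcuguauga

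The next sequences are the middle 250 bases of the TGFB1 peaks that had no TGFB1+miR-9-LOF counterpart, and of Axin1, the member with the highest TGFB1 score, which kept its peak. They are read from GRCm38.p6 on the gene's strand, and none of them touches an annotated exon. Capitals mark a G-tract, 4 runs of at least 3 G separated by 1 to 7 bases of any kind, searched on both strands. A separating base may itself be a G, so a long run can count more than once, as the last run does at Axin1, where 3 unbroken runs are seen.
Lzts2 first start, chr19:45015746-45015995, plus strand: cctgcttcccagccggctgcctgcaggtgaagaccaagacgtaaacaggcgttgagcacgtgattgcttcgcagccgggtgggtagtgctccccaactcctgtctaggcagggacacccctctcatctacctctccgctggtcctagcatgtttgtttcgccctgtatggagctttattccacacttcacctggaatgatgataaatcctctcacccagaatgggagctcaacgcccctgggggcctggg
Lzts2 later start, chr19:45018346-45018595, plus strand: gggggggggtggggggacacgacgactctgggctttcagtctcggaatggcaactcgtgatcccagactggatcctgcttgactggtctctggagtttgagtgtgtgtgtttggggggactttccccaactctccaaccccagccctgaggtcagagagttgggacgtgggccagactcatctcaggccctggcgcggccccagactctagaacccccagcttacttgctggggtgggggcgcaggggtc
Lrp5, chr19:3685987-3686236, minus strand: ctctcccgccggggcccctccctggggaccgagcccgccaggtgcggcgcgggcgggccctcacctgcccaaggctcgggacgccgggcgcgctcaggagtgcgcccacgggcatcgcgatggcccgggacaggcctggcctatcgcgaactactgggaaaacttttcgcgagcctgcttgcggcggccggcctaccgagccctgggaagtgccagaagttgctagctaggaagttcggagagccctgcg
Axin1, chr17:26139273-26139522, plus strand: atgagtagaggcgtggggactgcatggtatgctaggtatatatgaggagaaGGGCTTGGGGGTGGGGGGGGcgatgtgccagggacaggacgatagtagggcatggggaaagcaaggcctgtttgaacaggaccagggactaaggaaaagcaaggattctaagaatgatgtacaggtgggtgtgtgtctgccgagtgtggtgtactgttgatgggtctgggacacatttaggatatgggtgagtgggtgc

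G-tracts were searched because the study dealt with G-quadruplexes, structures that such runs of G can form. Of the 9 TGFB1 peaks in the member regions, the middles at Axin1 and Tcf7l2 held a G-tract and 7 did not. Over all 8669 TGFB1 promoter peaks the share was 19.7% (95% Wilson interval 18.9 to 20.6%). It was 18.1% (17.02 to 19.2%) of the 4816 peaks with a TGFB1+miR-9-LOF counterpart and 21.8% (20.5 to 23.1%) of the 3853 without. The TCF/LEF heptamer CTTTGAT, on either strand, lay in none of the 9 member middles and in 1.73% of all. GC content ran from 44.4% at Ctnnb1 to 73.6% at Lrp6, around a median of 61.2% over all peaks.

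RefSeq promoter windows of GRCm38.p6, the 250 bases before an annotated start, were matched for 4 of the 9 genes (Ctnnb1, Gsk3b, Lzts2 and Tcf7l2; 8 windows). Apc, Axin1, Lrp5, Lrp6 and Csnk1a1 were not matched. A G-tract was found in 4 of the 8 windows: both of Ctnnb1, 1 of Tcf7l2, and that of the later start of Lzts2. The Ctnnb1 windows overlap each other and share a tract, so these are not separate matches. Among all 32851 windows the share was 16.7%, and among the 9579 that overlapped a promoter region of the lists it was 25.5%. Of the member windows only the 3 of Lzts2 overlapped such a region, and 1 of them held a tract. The TCF/LEF heptamer was in none of the 8 windows and in 3.21% of all windows, and the complement of the miR-9-5p seed, ACCAAAG on either strand, was in none of the 8 and in 3.49% of all. The window of the later Lzts2 start is shown because TGFB1 was the only library with a peak there, and its capitals mark the G-tract, which lay on the gene's strand and ended 30 bases before the start.
Lzts2 later start, upstream window, chr19:45017885-45018134, plus strand: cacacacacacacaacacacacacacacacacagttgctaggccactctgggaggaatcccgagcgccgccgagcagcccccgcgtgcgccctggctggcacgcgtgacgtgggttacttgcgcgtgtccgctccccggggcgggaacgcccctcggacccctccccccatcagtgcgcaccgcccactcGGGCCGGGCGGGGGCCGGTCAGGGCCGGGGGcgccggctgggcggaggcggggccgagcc

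At the receptors, H3K4me3 was a little longer in TGFB1 than in Ctrl, and only Lrp6 still had a peak in TGFB1+miR-9-LOF. Lrp5 and Lrp6 encode the single-pass co-receptors that pair with Frizzled proteins. At Lrp5 (chromosome 19, minus strand, intron 1) the peak covered 1411 bp in Ctrl and 1561 bp in TGFB1, with scores of 67 and 82, and TGFB1+miR-9-LOF had none. At Lrp6 (chromosome 6, minus strand, intron 1) it covered 1589 bp in Ctrl, 1738 bp after TGFB1 and 1121 bp under TGFB1+miR-9-LOF, with scores of 80, 91 and 38. The co-receptor pair thus began at like lengths, and the one with the higher TGFB1 score was the one kept.

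In the destruction complex, all 3 genes with a region had a peak in every library, but at very different lengths. For Apc a peak in TGFB1+miR-9-LOF was given in advance, because only that peak bore its name. Axin1 encodes the scaffold whose amount usually limits assembly of the complex. Its peak (chromosome 17, intron 1) covered 1567 bp in Ctrl, 1806 bp after TGFB1 and 1000 bp under TGFB1+miR-9-LOF, with scores of 78, 136 and 38. The TGFB1 score stood at percentile 86.1 of the promoter regions of that library, against 47.1 in Ctrl and 23.7 in TGFB1+miR-9-LOF. Axin1 therefore had the largest rise in score and in length with TGFB1 among the members, and its peak in TGFB1+miR-9-LOF was at the shortest length in the list.

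Csnk1a1, which encodes casein kinase 1 alpha, the kinase that primes beta-catenin for Gsk3b, was the one member that stayed long. Its peak (chromosome 18, intron 1) covered 2004 bp in Ctrl, 2222 bp after TGFB1 and 2007 bp under TGFB1+miR-9-LOF, with scores of 96, 112 and 61. In length it stood at percentile 80.8 of the promoter regions in Ctrl, 87.8 after TGFB1 and 96.8 under TGFB1+miR-9-LOF. With broad taken as at least 2.7 kb, medium as at least 2 kb and narrow below that, as the study defined breadth, Csnk1a1 was medium in all 3 libraries. The study set these limits from quartiles of peak size in its merged list. In the TGFB1 list used here 193 promoter regions were broad, 1886 medium and 6590 narrow, so the classes are not quartiles of these lists. Of 1886 promoter regions that were medium in TGFB1, 114 (6.04%) were medium in TGFB1+miR-9-LOF, 1436 were narrow and 336 had no peak. Csnk1a1 lay just above the 2 kb limit in Ctrl and TGFB1+miR-9-LOF, by 4 and 7 bp.

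Apc, the large scaffold that is often mutated in colorectal tumours, was the only one of the 8 member regions with a peak in Ctrl and TGFB1 that was shorter in TGFB1. The region (chromosome 18) covered 1892 bp in Ctrl, 1698 bp after TGFB1 and 1056 bp under TGFB1+miR-9-LOF, with scores of 97, 108 and 29. In Ctrl and TGFB1 the deposited list gave this peak to Gm10548, an antisense noncoding gene that starts close by. In TGFB1+miR-9-LOF it was given to Apc, so by name alone Apc had a peak only there. The region counted as a member only through that peak, so its presence in TGFB1+miR-9-LOF is not a result. ChIP-seq reads carry no strand of transcription, and the mark of the pair of genes cannot be told apart.

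Gsk3b, the kinase of the complex that also acts in insulin signalling, had no peak of its own name within 2000 bp of its TSS in any library. A peak inside its first intron (chromosome 16) was given to the neighbouring annotation BC031361. It covered 2216 bp in Ctrl, with a score of 41, and 2100 bp in TGFB1, with a score of 62, so it too was shorter after TGFB1, and TGFB1+miR-9-LOF had none. It began 818 and 583 bp after the first GENCODE start of Gsk3b and held 1 other annotated Gsk3b start. With genes taken from annotated starts within 500 bp in place of the deposited names, this region joined the members.

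At Ctnnb1 and Tcf7l2, the genes of beta-catenin and of its DNA-binding partner, the mark lay inside the gene and was cut back mainly on its upstream side in TGFB1+miR-9-LOF. The Ctnnb1 peak (chromosome 9, intron 1) covered 1930 bp in Ctrl, 1942 bp after TGFB1 and 1000 bp under TGFB1+miR-9-LOF, with scores of 99, 112 and 37. As 1000 bp was the shortest length in the list, the ends of that last peak were partly set by this floor. The Tcf7l2 peak (chromosome 19) covered 2723 bp in Ctrl, 2803 bp after TGFB1 and 1259 bp under TGFB1+miR-9-LOF, with scores of 52, 67 and 23. Tcf7l2 was the only broad member, at length percentile 98.6 in Ctrl and 98.4 in TGFB1, while its score stood at percentiles 16.5 and 26.3. In TGFB1+miR-9-LOF it was narrow and its score was 1 above the lowest in the list, 22. Of 193 promoter regions that were broad in TGFB1, 3 stayed broad, 42 were medium, 100 were narrow and 48 had no peak in that library. The centre of the TGFB1+miR-9-LOF peak of Tcf7l2 lay 2167 bp from the TSS, so by the rule it was not a promoter peak and it is described here as part of the region.

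Lzts2 carried the shortest peaks of the members that were present in Ctrl and TGFB1, and was without a peak in TGFB1+miR-9-LOF. At its first start (chromosome 19, intron 1) the peak covered 1270 bp in Ctrl and 1399 bp in TGFB1, with scores of 71 and 76. These lengths stood at percentiles 10.8 and 14.2 of the promoter regions of their libraries. At a later start, 2925 bp further along the gene, only TGFB1 had a peak, of 1098 bp with a score of 38, which stood at percentile 2.96 in length and 2.92 in score. A gap of 1352 bp separated both TGFB1 peaks, which together covered 2497 bp. A neighbouring promoter, that of the mitochondrial ribosomal gene Mrpl43, lay 7610 bp before the first Lzts2 peak in TGFB1 and kept its mark. It covered 2028 bp in Ctrl, 2139 bp after TGFB1 and 1838 bp under TGFB1+miR-9-LOF, with scores of 147, 207 and 80. Its TGFB1 score lay in the highest quintile of that library, where 93.4% of all promoter regions had a TGFB1+miR-9-LOF peak. The first Lzts2 start lay in the second quintile, where 36.0% had one. The part of the score in this difference was not tested.

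**Figure D1:**
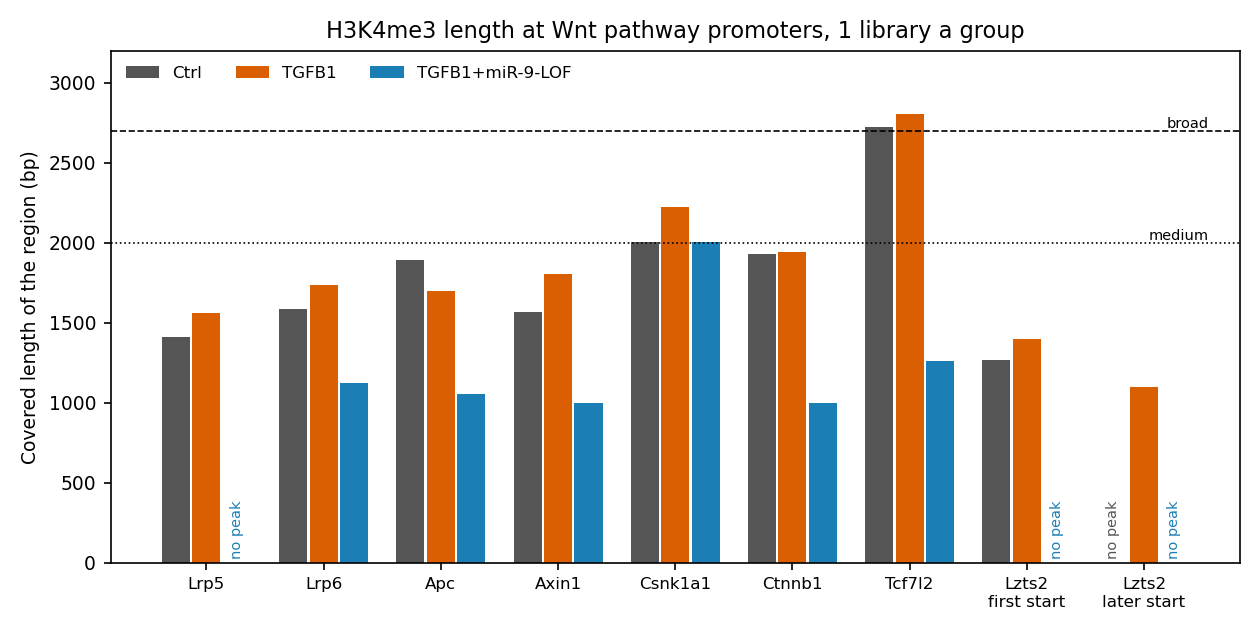
Covered length of H3K4me3 in bp (y axis) at the 9 promoter regions of the member genes (x axis) in the 3 libraries, 1 bar a library; dashed and dotted lines mark the broad and medium limits. Csnk1a1 is the only region above the medium limit in TGFB1+miR-9-LOF, at 2007 bp, and Lrp5 and both Lzts2 starts have no bar there.

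The comparison of TGFB1 with Ctrl asks whether the growth factor alone lengthened the mark. At the member genes the differences were small and mostly upwards. Among the 8 regions with a peak in both libraries, 7 were longer in TGFB1 (all but Apc), where 64.3% of all 8171 such regions were longer. None of the 8 was at least 25% longer, against 10.3% of all regions, and none was at least 20% shorter (the same proportion downwards), against 2.92%. The median log2 length ratio was 0.13 over the members, whose 8 values ran from -0.16 to 0.20, and 0.06 over all regions.

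Axin1 had the largest increase, of 239 bp (1.15-fold, log2 0.20, percentile 78.5 of all regions). Csnk1a1 gained 218 bp, Lrp5 150 bp, Lrp6 149 bp and the first start of Lzts2 129 bp, all between 1.09-fold and 1.11-fold. These 4 regions moved by nearly the same proportion, at percentiles 65.4 to 69.5 of all regions. Tcf7l2 was 80 bp longer (1.03-fold) and Ctnnb1 12 bp (1.01-fold). Apc was the exception, at 0.897 of its Ctrl length, a log2 ratio of -0.16 (percentile 11.0). The score was higher in TGFB1 than in Ctrl at all 8 regions, and the median score of the whole list rose too (79 and 89). Scores were not scaled between libraries, and this count is not set against a share over all regions.

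The growth in length lay mostly on the gene-body side for some members and not for others. At the first start of Lzts2 the downstream end moved 286 bp further into the gene while the upstream end drew back by 157 bp, and at Lrp5 these values were 228 and 78 bp. The downstream end also moved outwards at Axin1, by 175 bp, and at Csnk1a1, by 137 bp. Lrp6 went the other way: its upstream end moved out by 251 bp and its downstream end drew back by 102 bp. Over 7775 single-peak regions the median outward shift was 34 bp upstream and 29 bp downstream.

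The later Lzts2 start was the only member region with a peak in TGFB1 and none in Ctrl, where 5.63% of all regions were of that kind, and no member region was lost. Of the 498 promoter regions gained in TGFB1, 18 (3.61%, Wilson interval 2.30 to 5.64%) belonged to a gene that already had another promoter region in Ctrl, as Lzts2 did. Gained regions had a median length of 1237 bp and a median score of 46 (middle 50% from 39 to 55), so the Lzts2 peak was on the short and low side of them. TGFB1+miR-9-LOF had no peak at 477 of the 498 (95.8%), where the share over all 8669 regions with a TGFB1 peak was 44.4%. Gained regions mostly had low TGFB1 scores. In the lowest quintile of these scores (25 to 61), 12.5% of all promoter regions had a TGFB1+miR-9-LOF peak. The part of the score in this count was not tested.

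**Figure D2:**
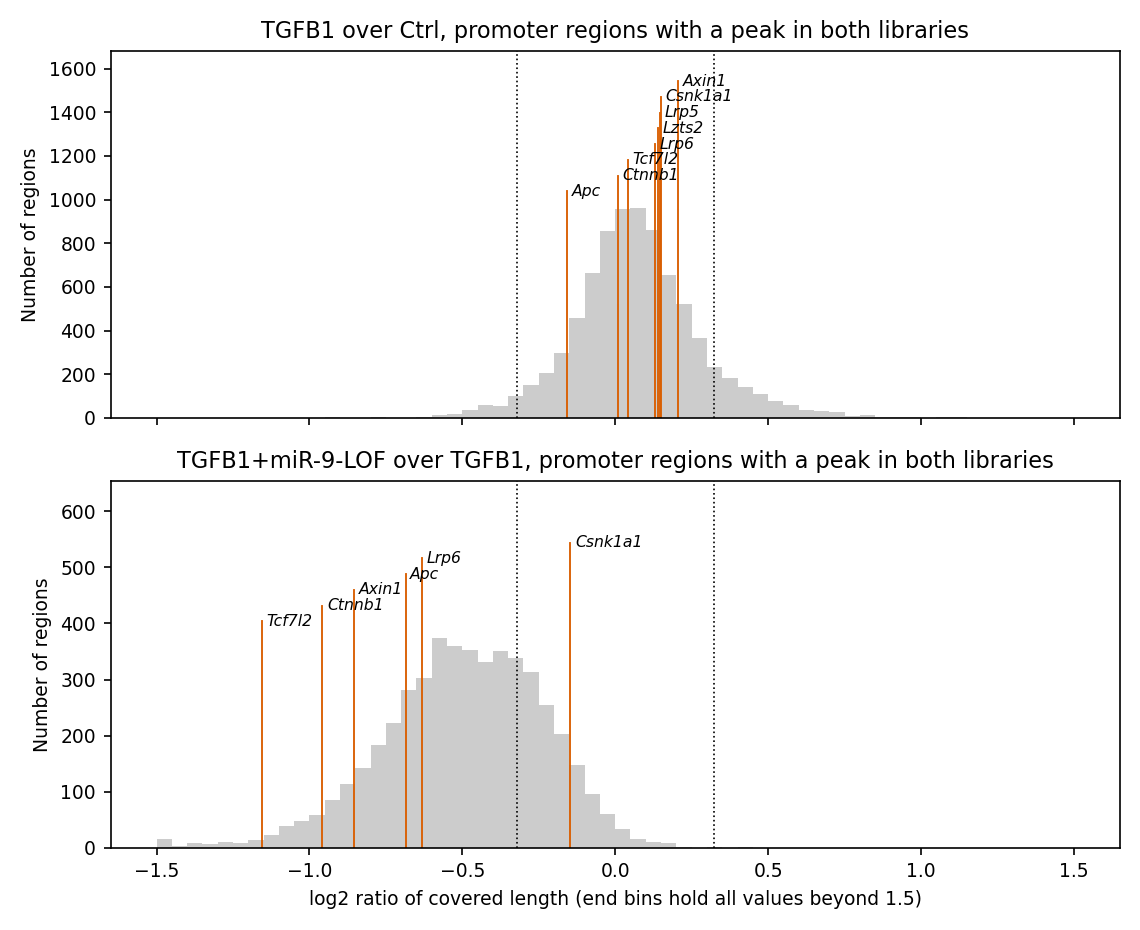
Histograms of the log2 ratio of covered length (x axis) over promoter regions with a peak in both libraries (y axis, number of regions), with each member region as a labelled line and dotted lines at 25% longer and 20% shorter. With TGFB1 the members lie between log2 -0.16 (Apc) and 0.20 (Axin1); in TGFB1+miR-9-LOF they run from -1.15 (Tcf7l2) to -0.15 (Csnk1a1).

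The comparison of TGFB1+miR-9-LOF with TGFB1 asks what the mark looked like when miR-9-5p was blocked during the same treatment. Every member region was shorter or had no peak, and the members differed widely in how much was left. Ctnnb1, Axin1 and Tcf7l2 kept 44.9 to 55.4% of the length, Csnk1a1 nearly all of it, and Lrp5 and both starts of Lzts2 had no called peak. All 6 regions with a peak in both libraries were shorter, where 4744 of all 4817 such regions were. Of the 6 member regions, 5 were at least 20% shorter, all but Csnk1a1, where the share over all 4817 was 72.9%. No TGFB1+miR-9-LOF peak was called at 3 of the 9 regions, where the share over all 8669 regions was 44.4%. Apc was among the 9 only through its peak in TGFB1+miR-9-LOF. All of these counts were near the background, so they say nothing particular about these genes.

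Tcf7l2 fell by 1.15 on the log2 scale, to 44.9% of its TGFB1 length, at percentile 1.32 of all regions. Ctnnb1 fell by 0.96, to 51.5% (percentile 4.60), and Axin1 by 0.85, to 55.4% (percentile 8.83). Apc was left with 62.2% and Lrp6 with 64.5%, at percentiles 21.9 and 28.2. Csnk1a1 had 90.3% of its length, a log2 ratio of -0.15, at percentile 92.5. The median over the 6 regions was -0.77, with the 6 values spread from -1.15 to -0.15, and over all regions it was -0.48, inside that range. Ctnnb1 and Axin1 stood at 1000 bp, the shortest length in the list and the extension size that the study's methods give for the peak caller, so the share left at these genes was set by that floor and their TGFB1 length. The same length was seen at 182 of the 4818 promoter peaks of that library (3.78%).

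The end that drew back differed between members. Tcf7l2 lost 1487 bp at its upstream end and 57 bp at its downstream end, so what remained began 1538 bp after the TSS. Ctnnb1 lost 670 bp upstream and 272 bp downstream, and what remained began 1075 bp after the TSS. Axin1 showed the reverse, with 153 bp lost upstream and 653 bp downstream. Ctnnb1 and Axin1 stood at 1000 bp in TGFB1+miR-9-LOF, the shortest length in the list. The losses at their ends were therefore partly set by that floor. Apc lost 838 bp downstream, and its upstream change of -196 bp was an extension. Csnk1a1 lost about as much at either end, 103 bp upstream and 112 bp downstream. Over 4532 regions with 1 peak in each library the median loss was 260 bp upstream and 234 bp downstream, and 52.7% lost more upstream.

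The TSS itself lay under the peak in all libraries that had one at Lrp5, Lrp6, Apc, Axin1 and both starts of Lzts2. It lay outside the peak in all 3 libraries at Ctnnb1 and Tcf7l2, and in Ctrl and TGFB1+miR-9-LOF at Csnk1a1, always because the peak began downstream of it. Over all promoter peaks the TSS was covered in 90.4% in Ctrl, 92.4% after TGFB1 and 73.9% under TGFB1+miR-9-LOF. A centre downstream of the TSS was the usual position, at 89.3, 89.4 and 88.7% of promoter peaks.

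**Figure D3:**
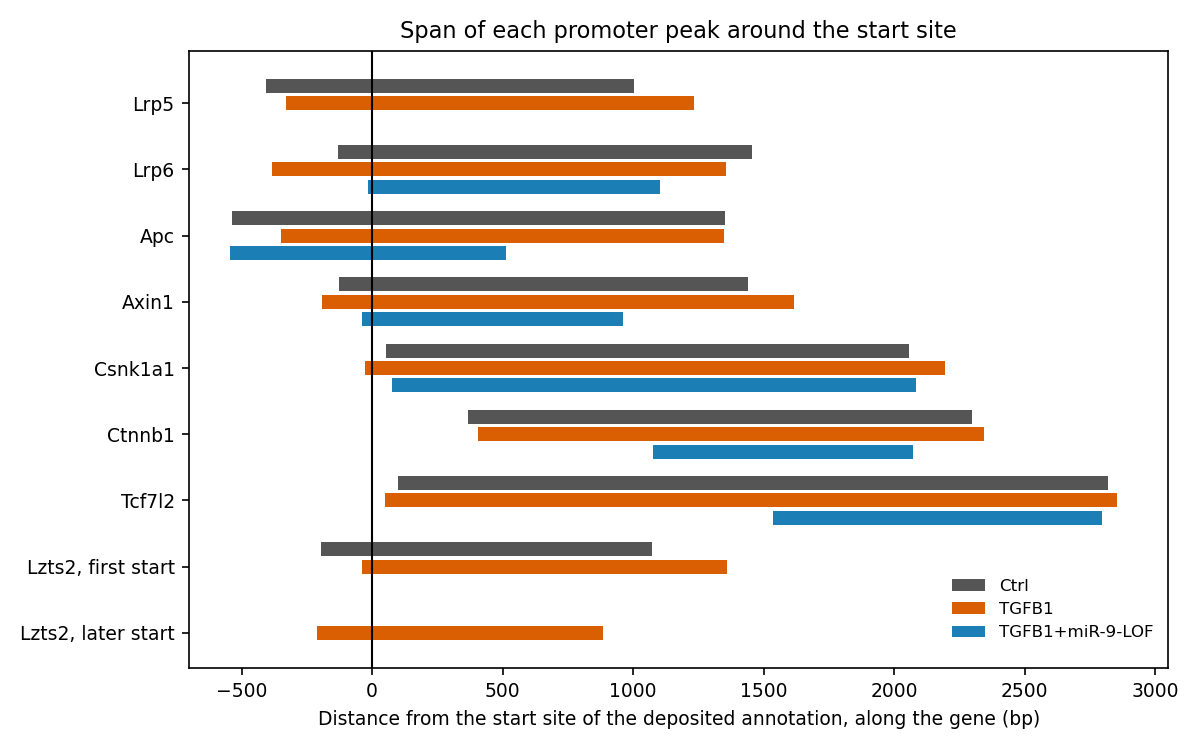
Span of each peak along the gene (x axis, bp from the TSS of the deposited annotation, downstream to the right) for the 9 member regions (y axis) in the 3 libraries. At Tcf7l2 and Ctnnb1 the TGFB1+miR-9-LOF peak begins 1538 and 1075 bp after the TSS, and at Axin1 its downstream end lies 653 bp short of the TGFB1 end.

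Whether a region had a peak in TGFB1+miR-9-LOF went with its score in TGFB1. Over all promoter regions, the share with a peak rose from 12.5% (Wilson interval 11.1 to 14.2%) in the lowest quintile of TGFB1 scores to 36.0, 58.7 and 79.8% in the next quintiles and to 93.4% (92.1 to 94.5%) in the highest. These intervals cover counting error only. The members followed that order for the most part. Axin1, in the highest quintile, and Apc, Csnk1a1 and Ctnnb1, in the fourth, all had a peak. For Apc this was fixed by the naming of its peaks. Lrp6, with a score of 91, had one and Lrp5, with 82, had none, and both were in the third quintile. In the second quintile Tcf7l2, with 67, had a peak and the first Lzts2 start, with 76, had none, and the later Lzts2 start, with 38, was in the lowest quintile. The part of the TGFB1 score, or of a lower overall enrichment in the third library, in these calls was not tested.

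**Figure D4:**
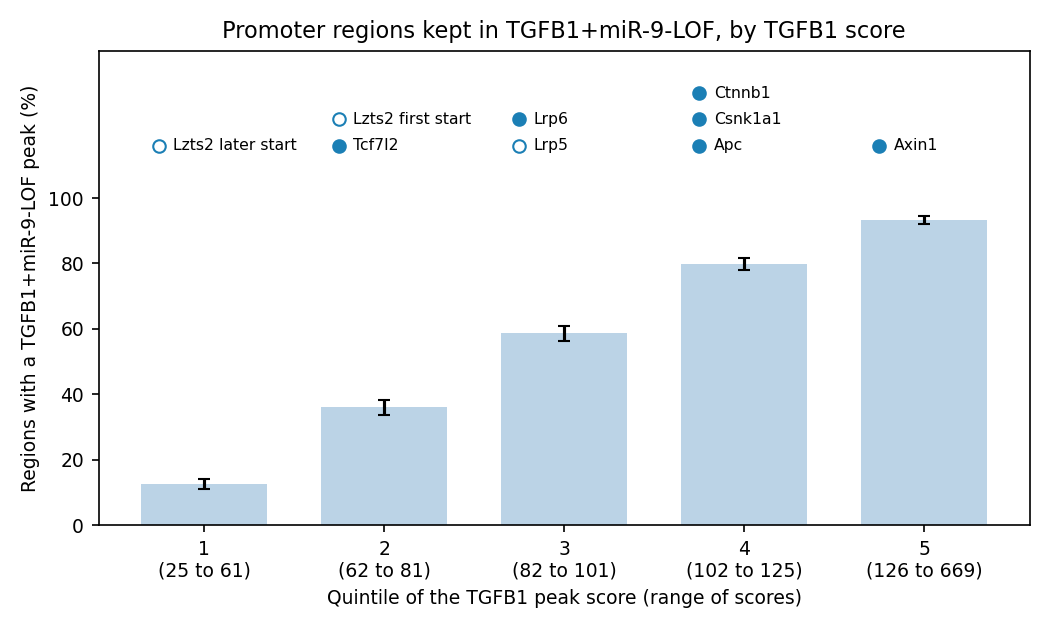
Share of promoter regions with a TGFB1+miR-9-LOF peak (y axis, %, bars with 95% Wilson intervals) by quintile of the TGFB1 score (x axis), with member regions above their quintile, filled where the peak was kept and open where none was called. The share rises from 12.5 to 93.4%, and the 3 open member circles lie in the lower 3 quintiles.

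Set against Ctrl, the members stood in much the same order; both comparisons use the TGFB1+miR-9-LOF library. Of the 6 regions in both, 5 were at least 20% shorter, where the share over all 4802 such regions was 64.9%. Csnk1a1 differed from Ctrl by 3 bp. No TGFB1+miR-9-LOF peak was called at 2 of the 8 regions with a Ctrl peak, Lrp5 and the first start of Lzts2. The share over all regions was 42.5%, and Apc was among the 8 only through its TGFB1+miR-9-LOF peak. The lengths left were 46.2% of Ctrl at Tcf7l2, 51.8% at Ctnnb1, 55.8% at Apc, 63.8% at Axin1 and 70.5% at Lrp6. The median log2 ratio over the members was -0.74, and over all regions -0.42.

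The rest of the pathway was read from a list of 105 other Wnt genes ordered by role, of which 53 had a promoter region, 54 regions in all. Of 23 genes for Wnt ligands and R-spondins, only Wnt5a and Wnt10a had a region, and of 14 secreted or membrane inhibitors only Sfrp1 and Kremen1. A region was found at 11 of 16 receptor genes, 6 of 8 further genes of the destruction complex, 11 of 14 genes for TCF factors and their partners, and 7 of 8 target genes. These counts are not set against the share of all annotated genes with a promoter region, so they say nothing particular about the pathway. The differences between roles were not tested, and a gene without a called peak may still carry the mark. None of Lzts1, Lzts3 and N4bp3, the relatives of Lzts2, had a promoter region.

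With TGFB1, these genes moved both ways. Of 47 regions with a peak in Ctrl and TGFB1, 24 were longer and 23 shorter, where 64.3% of all regions were longer, and the median log2 ratio was 0.01, against 0.06 over all regions. The 6 that were at least 25% longer were Znrf3, Dvl1, Wnt5a, Fzd5, the second region of Bcl9l and Lgr4, where 10.3% of all regions were that much longer, and none was at least 20% shorter, where 2.92% of all were. The count of 6 was near the background, and the genes below are named by size. Znrf3, a ubiquitin ligase that removes Frizzled from the membrane, went from 1268 to 1825 bp (log2 0.53). Dvl1, which relays the receptor signal, went from 1182 to 1685 bp (log2 0.51), while its paralogue Dvl2 went from 1667 to 1372 bp (log2 -0.28). Wnt5a, a ligand known for beta-catenin-independent signalling, went from 1822 to 2471 bp (log2 0.44). Fzd5 went from 1585 to 2057 bp (log2 0.38), and the second region of Bcl9l, a beta-catenin co-activator, from 1426 to 1837 bp (log2 0.37).

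The largest decreases included 3 of the 7 target genes with a region. Birc5, which encodes survivin, went from 2510 to 2019 bp (log2 -0.31), the cyclin gene Ccnd1 from 2632 to 2139 bp (log2 -0.30) and Snai2, a factor of mesenchymal change, from 2598 to 2133 bp (log2 -0.28). The co-repressor gene Tle1 went from 3151 to 2567 bp (log2 -0.30). Of the 7 target genes, 5 were shorter and 2 longer in TGFB1, where 64.3% of all regions were longer, and the difference between this role and the rest was not tested. Their median log2 ratio was -0.26, while their scores were higher in TGFB1 at all but Fosl1, as was the median score of the whole list. The count of higher scores is not set against a share over all regions. Peaks present only in TGFB1 were those of Fzd3, Bcl9, Lgr6, Sfrp1, Ctnnbip1 and Wnt10a, between 1000 and 1310 bp long, and Rnf43, the paralogue of Znrf3, had a peak only in Ctrl (1371 bp).

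In TGFB1+miR-9-LOF, all 30 regions shared with TGFB1 were shorter, where 4744 of all 4817 shared promoter regions were. Of the 30, 27 were shorter by at least 20%, where the share over all regions was 72.9%. No peak was called at 23 of 53, where the share was 44.4%, so the count without a peak was at the background. The median log2 ratio was -0.54, beside -0.77 over the members and -0.48 over all regions. All 7 target genes kept a peak and were shorter, with a median of -0.84. In TGFB1 all of them were medium, at 2019 to 2654 bp, with scores of 77 to 121. Of all 1886 promoter regions that were medium in TGFB1, 82.2% kept a peak and most became narrow. The part of starting length and score in the values of the targets was not tested. The co-repressor gene Tle3 fell from 2492 to 1000 bp (log2 -1.32), Snai2 from 2133 to 1061 bp (-1.01), Wnt5a from 2471 to 1269 bp (-0.96), Myc from 2314 to 1203 bp (-0.94) and Ccnd1 from 2139 to 1153 bp (-0.89). Tle3 stood at the shortest length in the list, so its decrease against TGFB1 or Ctrl was set by that floor and the starting length. Snai2 lay close to the same floor. Against Ctrl the largest decreases were at Snai2 (-1.29), Tle3 (-1.27), Myc (-1.20), Ccnd1 (-1.19) and Fzd2 (-0.83).

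Of the 11 receptor regions, 7 had no TGFB1+miR-9-LOF peak, where the share over all regions was 44.4%. The longest TGFB1 peaks of the list without a counterpart were Fzd7 (2993 bp), Tle1 (2567 bp), Ctbp2 (2113 bp), Fzd5 (2057 bp) and Csnk1e (1974 bp), and those of the Ctrl library also included Fzd1 (1816 bp) and Btrc (1731 bp). Their TGFB1 scores ran from 48 at Tle1 and 51 at Fzd7 to 112 at Btrc. The difference between the roles was not tested.

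Since Lzts2 had no TGFB1+miR-9-LOF peak, likeness over all 3 libraries could not be measured. In its place, a measure set after the values were seen compared the first Lzts2 region with the 17 list regions that had a peak in Ctrl and TGFB1 but lacked one in TGFB1+miR-9-LOF. By distance in log2 length over both libraries, the nearest were Lgr4 (1146 and 1434 bp, distance 0.15), Dvl1 (0.29), Fzd8 (0.30), the first region of Bcl9l (0.30) and Amer1 (0.31).

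**Figure D5:**
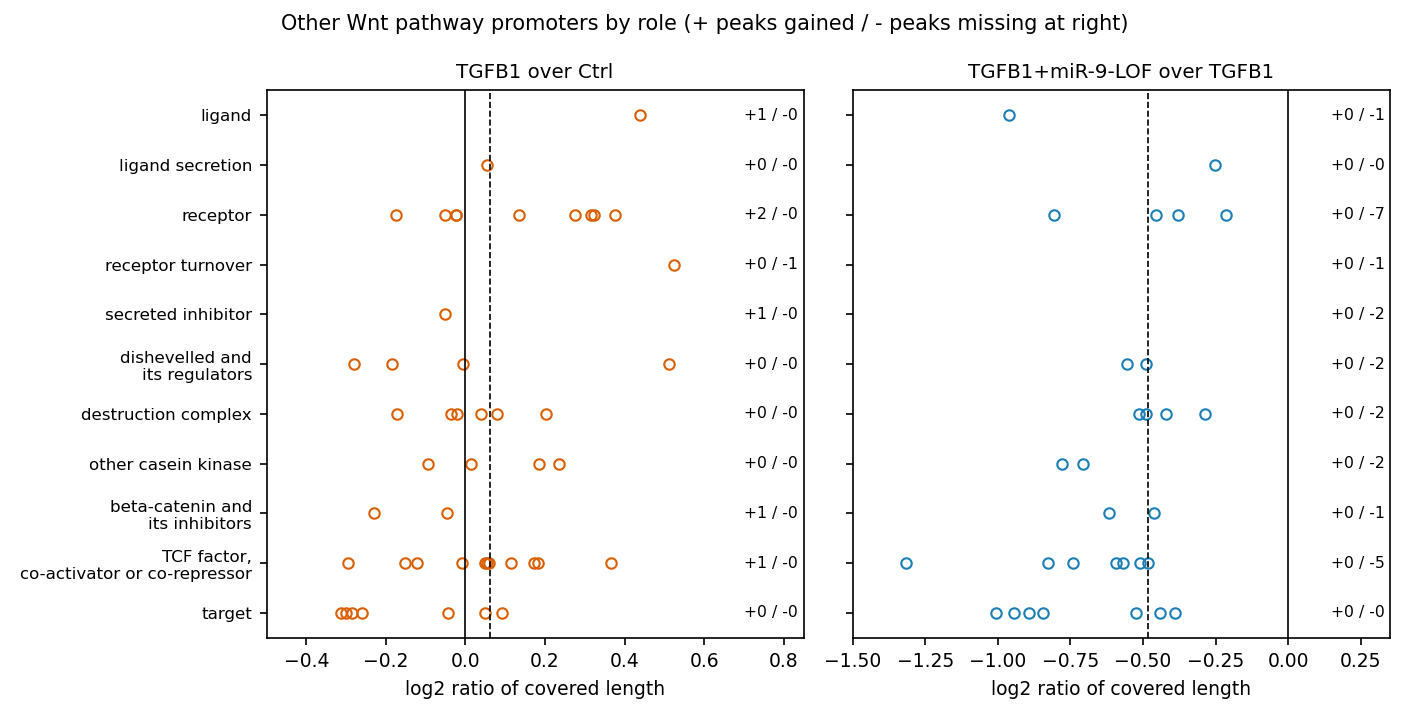
log2 ratio of covered length (x axis) for regions of the other Wnt genes by role (y axis), TGFB1 over Ctrl at left and TGFB1+miR-9-LOF over TGFB1 at right, with the median over all promoter regions dashed; +n and -n count regions with a peak only in the first or only in the second library. All 30 regions at right are below 0, as are 4744 of all 4817 promoter regions with a peak in both libraries. The 7 target genes have no missing peak there.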

How the data were processed

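H3K4me3 ChIP-seq of MLg cells was deposited as 3 peak tables, 1 library a group (Ctrl, TGFB1 and TGFB1+miR-9-LOF). Per the submitters' processing notes, the tools were HOMER, MACS3, Bowtie2, bedtools, Trimmomatic, deepTools 3.5.1 and Picard 1.119, with mm10. The authors called broad peaks in each library; use of an input library is not given in the sources used here. The deposited peak score is a score of the caller, not scaled between libraries, and start, end and distance to the TSS were used as deposited. Lower overall enrichment or depth in a library gives fewer and shorter peaks, and these were not separated here.

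Peaks overlapping by at least 1 bp across libraries were joined into regions. Promoter regions had a peak centre within 2000 bp of a TSS. Covered length was compared as a log2 ratio, and regions at least 25% longer or 20% shorter were counted (Python 3.11.15, pandas 2.3.3, NumPy 2.4.6, SciPy 1.17.1). The region and ratio steps were tested on simulated data. Named genes were all 9 members and, of the list of other Wnt genes, the 5 largest increases and decreases and the 5 longest gained and lost regions a comparison; others were named after their values were seen. Members, lists and tests were chosen with earlier results of these data known. Alternatives were a stricter score, the widest peak, a promoter distance of 1000 bp, an overlap of 50% of the shorter peak, genes from GENCODE M21 starts within 500 bp, ratios minus the overall median, and, added after seeing the data, only peaks that meet the rule in their own library.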

Additional observations from a re-analysis of the deposited data

How the results depend on the processing

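Of 41 values recomputed for the members and the Wnt list, 37 stayed within the interval of the main value or within 1.5 times its count. For the members' medians this interval was the full range of their values, which a median over the same regions can hardly leave. The widest-peak and overlap settings left every member length unchanged. The count of 37 therefore says little about how firm the members' values are. The median log2 ratio of the other Wnt genes, TGFB1 over Ctrl, was 0.01 and turned to -0.01 with the stricter score, to -0.01 with a promoter distance of 1000 bp and to -0.05 after subtracting the median over all regions, so it has no firm direction. Their median for TGFB1+miR-9-LOF over TGFB1, -0.54, moved to -0.06 after that subtraction. The members' medians kept their sign throughout, at 0.07 to 0.14 for TGFB1 over Ctrl, -0.77 to -0.29 for TGFB1+miR-9-LOF over TGFB1 and -0.74 to -0.32 for TGFB1+miR-9-LOF over Ctrl, on 3 to 9 regions. The stricter score kept only peaks at or above the lower quartile of their list, and the later Lzts2 start dropped out. The TGFB1+miR-9-LOF peaks of Apc (score 29), Ctnnb1 (37) and Tcf7l2 (23) fell below the limit of 38. The Ctrl and TGFB1 peaks of the Apc region (97 and 108) passed but are named Gm10548, so Apc left the members by name. Without Apc, 4 of 7 regions had no TGFB1+miR-9-LOF peak. With genes by annotated starts, Gsk3b joined and 4 of 10 had none. With peaks that meet the rule in their own library, added after seeing the data, 4 of 8 had none. No paired analysis was possible because each group was 1 library. Without replicates or read depth, a peak that was not called cannot be told apart from one below the caller's threshold.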
